A study of Homo sapiens with 2 samples.

Results

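Heme is made from glycine and succinyl-CoA and is broken down by an oxygenase and a reductase, and 9 genes of these routes were followed here in a colon cancer line and its vincristine-resistant derivative. They are the synthesis genes ALAS1, ALAD, UROS, UROD, CPOX, PPOX and FECH and the breakdown genes HMOX1 and BLVRB. They were found by gene symbol in the annotation of the array's probes, which gave 14 of the 47323 probes and 9 of the 20046 named genes. The group was chosen by the measured difference of ALAS1 between these 2 arrays, around which the other genes of the route were gathered. Its values, and those of the whole group, are therefore a description and carry no test.

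The parental line, HCT-8, is a long-established human line from colon cancer. HCT-8/V is the derivative that resists vincristine, a vinca alkaloid that binds tubulin. Both were kept in serum-supplemented RPMI medium, and per the labels both had received the plasmid pcDNA3.1-Twist 48 h earlier. Each line was measured on 1 Illumina bead array, with no replicate, and plasmid-free cells were not analysed here. Since the treatment text is the same for both samples, it is not settled whether either was meant as a control. With so few arrays precision is limited: effects of the line, of the culture and of the array cannot be told apart. In bulk RNA, fewer cells with a transcript and less of it per cell cannot be told apart either.

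Markers of the labelled tissue were only partly present. Of 13 markers of colon epithelium, the keratin gene KRT8 (2199 in HCT-8 against 2283 in HCT-8/V) and KRT18 (445 and 560) were bright. Dimmer were EPCAM (117 in HCT-8 against 80.0 in HCT-8/V), CDH17 (66.4 and 65.6), GPA33 (40.9 and 47.1) and KRT19 (12.8 and 12.8). CDH1, CDX1, CDX2, VIL1, KRT20, CEACAM5 and LGALS4, 7 in all, were below the floor on both arrays. The floor is each array's median intensity, 12.4 on both. A value under it is treated as not measured above background, because probes with a mean below 0 already differed between the arrays with a standard deviation of 10.7 intensity units.

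The pathway starts in the mitochondrial matrix, where ALAS1 joins glycine and succinyl-CoA to aminolevulinic acid, the rate-limiting step in cells outside the erythroid lineage. ALAD, UROS and UROD act in the cytosol, and CPOX, PPOX and FECH complete the pathway in mitochondria, where FECH inserts ferrous iron into protoporphyrin. Heme represses ALAS1 at several levels and induces HMOX1 by releasing the repressor BACH1 from its promoter. HMOX1 then opens the ring to give biliverdin, carbon monoxide and iron, and biliverdin reductases make bilirubin.

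The ALAS1 promoter is shown because this gene carried the largest difference of the group and because the transcription factor NRF1, a regulator of nuclear genes for mitochondria, is on the list of its regulators used below. The stretch covers 250 bases before the annotated start and the first 2 bases from it, at chr3:52197833-52198084 on the plus strand of GRCh38.p14, as RefSeq gives it. Capitals mark a match to TGCGCA, the core of each arm of the NRF1 motif, which reads the same on both strands.
ALAS1: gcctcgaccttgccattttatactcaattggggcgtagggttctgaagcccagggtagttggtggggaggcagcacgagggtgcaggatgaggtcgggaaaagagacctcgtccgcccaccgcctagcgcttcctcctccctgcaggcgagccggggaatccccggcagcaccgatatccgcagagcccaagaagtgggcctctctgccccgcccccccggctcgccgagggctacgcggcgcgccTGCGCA
A second match to TGCGCA lies at bases 27 to 32, counted from 1 at the start base. Of 35116 RefSeq windows reaching from 250 bases before to 50 after a gene's start, 8.24% held TGCGCA and 1.07% held it 2 or more times. Windows were at hand for 7 members, all but UROS and HMOX1, and among these TGCGCA was found for ALAS1 alone. The antioxidant-type motif TGACNNNGC, searched on both strands, does not overlap it, was present in 13.3% of all windows, and was found among those 7 in the window of FECH alone. These matches describe letters in the genome and say nothing of binding in these cells. NRF1 itself, named here after its values were seen, read 8.86 in HCT-8 against 6.45 in HCT-8/V on its brightest probe, below the floor on both arrays.

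Most of the heme genes read higher in the resistant line, and none was clearly lower. With the brightest probe by mean intensity standing for each gene, 7 of 9 were higher in HCT-8/V and 2, ALAD and CPOX, were lower by less than 1.1-fold. Of all genes above the floor on at least 1 array, 52.8% were higher and 47.1% lower. All 9 were above the floor on both arrays. The log2 differences ran from -0.09 to 1.66 with a median of 0.70, against a median of 0.03 over the 13763 genes above the floor on at least 1 array. ALAS1 was the only member at least 2-fold higher, and no member was at least 2-fold lower. Over all genes above the floor, 4.24% passed 2-fold upwards in HCT-8/V and 3.77% downwards. At 1.5-fold 5 members were higher and none lower, beside 12.8% and 11.2% of all genes above the floor. Because the group was assembled with these differences known, nothing is read from these counts.

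**Figure D1:**
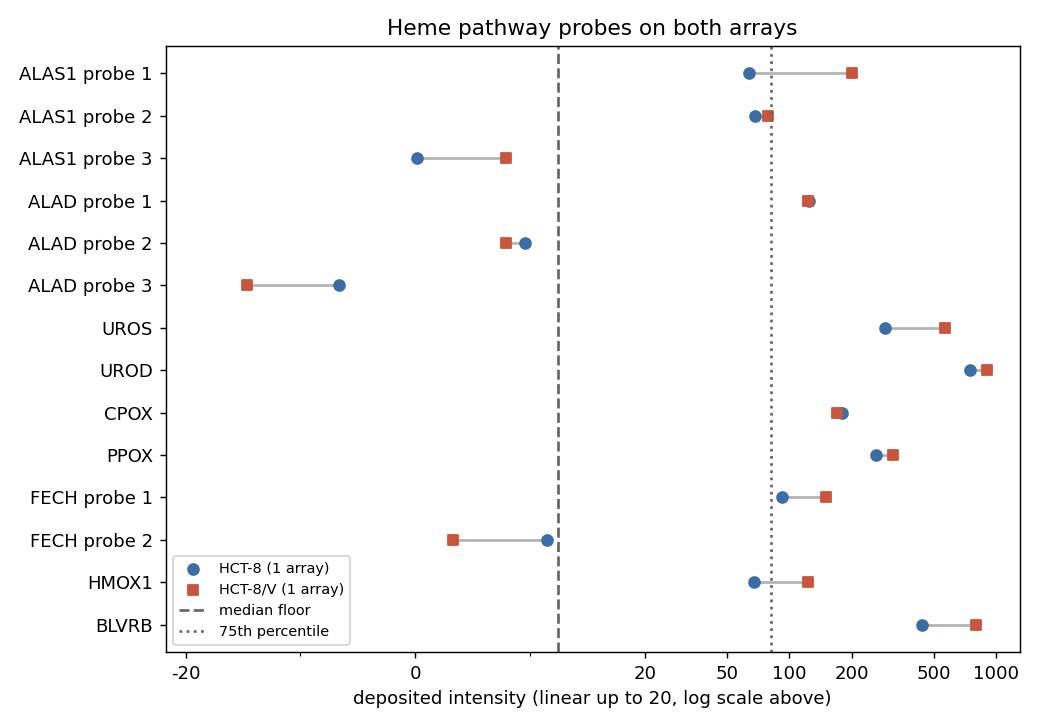
Deposited intensity of each of the 14 probes of the 9 heme genes in HCT-8 (circles) and HCT-8/V (squares), 1 array each, in pathway order; the horizontal axis is linear up to 20 and logarithmic above, and probes of a gene are numbered by brightness. ALAS1 probe 1 goes from 63.8 to 202 while probe 2 goes from 67.8 to 79.0, and 4 probes lie left of the dashed median floor on both arrays.

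ALAS1 had 3 probes, and they did not give the same answer. The brightest, ILMN_2385647, read 63.8 in HCT-8 against 202 in HCT-8/V, 3.16-fold higher (log2 difference 1.66). The second, ILMN_1700047, read 67.8 and 79.0, which is 1.16-fold higher (log2 0.22). The third, ILMN_1728309, was below the floor on both arrays, at 0.145 and 7.94. Both probes above the floor were thus higher in HCT-8/V, but only 1 of them was past 2-fold.

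The choice of probe decided the size for ALAS1. In HCT-8 the second probe was the brighter of the pair, and it was the reading in HCT-8/V that put ILMN_2385647 ahead. Averaging the 3 probes gave a log2 difference of 1.13. With the probe brightest in HCT-8 alone it was 0.22, and no member then reached 2-fold. The annotation assigns the brightest probe to another RefSeq transcript record of ALAS1 than the other 2. Whether the probes read different transcripts was not tested, since no probe sequences were used here.

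The gap between the probes can be set beside that of other genes. In 579 genes the brightest and second brightest probes both had mean intensities between 50 and 250 and were above the floor on both arrays. Their log2 differences lay a median of 0.36 apart, and the 95th percentile was 1.10. The gap for ALAS1 was 1.44, and 8 of the 579 genes (1.38%, ALAS1 included) had one as large. ALAS1 was chosen for the difference of its brightest probe, so nothing is read from its place among them. Disagreement as such was frequent. Of 45 genes with several probes that were past 2-fold on a brightest probe above the 75th percentile on at least 1 array, 35 had a second probe above the floor. That second probe went the same way in 23 and was itself past 2-fold in 7.

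With the floor raised to the 75th percentile of all probes, 81.3, the HCT-8 value of ALAS1 lay under the floor, so that the difference there was a bound of 1.31 on the log2 scale. The 5 genes nearest to ALAS1 in the plane of both log2 intensities, of 11356 above the floor on both arrays, were LIMS2, ZNF408, SLC25A22, CDC42EP1 and DNMT3L. They lay 0.32 to 0.40 log2 units away and were 2.27-fold to 2.39-fold higher. With 2 arrays, such likeness is a description of position only.

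**Figure D2:**
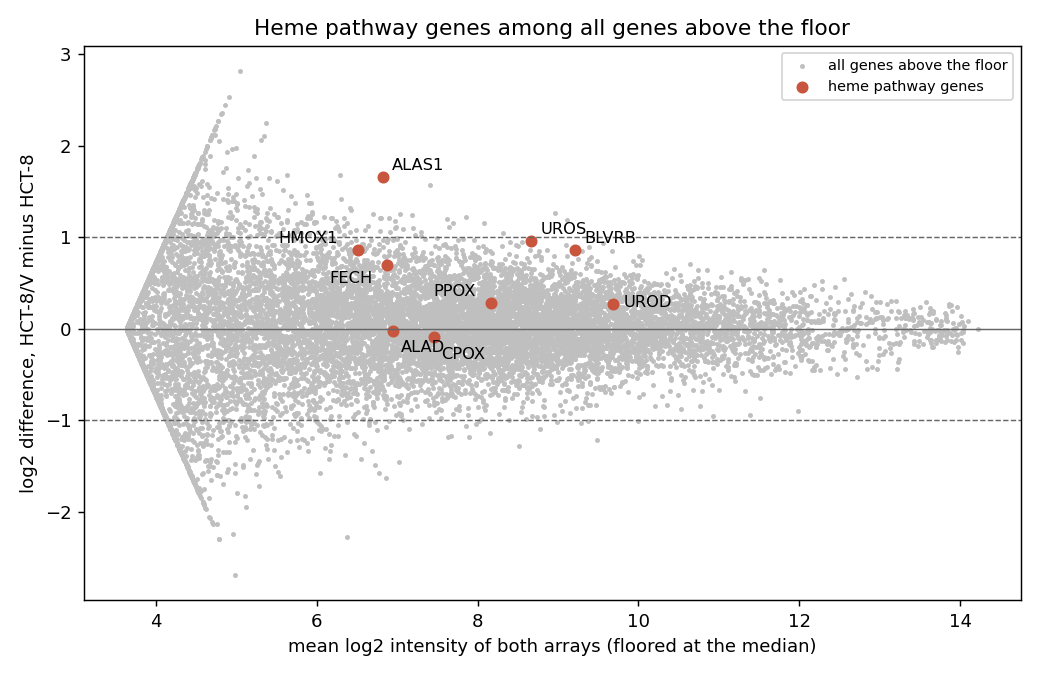
Log2 difference between HCT-8/V and HCT-8 against mean log2 intensity for the 13763 genes above the floor (grey, brightest probe, 1 array per line), with the 9 heme genes in red; dashed lines mark 2-fold. ALAS1 is the only heme gene beyond 2-fold, UROS lies just under the line at 0.96, and ALAD and CPOX lie close to 0.

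The cytosolic steps were uneven. ALAD, which joins aminolevulinic acid molecules into porphobilinogen and is the enzyme blocked in lead poisoning, was level, at 125 in HCT-8 against 123 in HCT-8/V on its brightest probe. Its other 2 probes were below the floor on both arrays, at 9.56 and 7.89 for one and -6.65 and -14.7 for the other.

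UROS, which closes the linear tetrapyrrole into uroporphyrinogen III, had the largest difference after ALAS1. Its single probe read 291 in HCT-8 against 566 in HCT-8/V, 1.95-fold higher (log2 0.96). UROD, which removes carboxyl groups from uroporphyrinogen, followed with a far smaller difference, at 749 and 906 (1.21-fold, log2 0.28). Within the cytosolic stretch, then, ALAD was level, UROD slightly higher and UROS higher by close to 2-fold.

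The last steps, in mitochondria, did not share a direction. CPOX, which oxidises coproporphyrinogen, was nearly level and slightly lower, at 181 in HCT-8 against 170 in HCT-8/V (log2 -0.09). PPOX, which makes protoporphyrin, read 262 and 317, 1.21-fold higher (log2 0.28). FECH, the iron-inserting enzyme, read 92.3 and 150, 1.62-fold higher (log2 0.70). FECH had a second probe, annotated to another transcript record, which was below the floor on both arrays at 11.5 and 3.26. The first and the last enzyme of the route thus both read higher in the resistant line, ALAS1 on 1 of its 2 probes above the floor by far and FECH on its only such probe.

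Both breakdown genes read higher in HCT-8/V by close to the same factor. HMOX1, the inducible heme oxygenase, read 67.4 in HCT-8 against 123 in HCT-8/V (1.82-fold, log2 0.86). BLVRB, which reduces biliverdin IX-beta and flavins, read 440 and 799 (1.82-fold, log2 0.86). Each had 1 probe, so no second reading was at hand. HMOX1 was above the 75th percentile in HCT-8/V only, and with the floor set there its difference was a bound of 0.59.

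**Figure D3:**
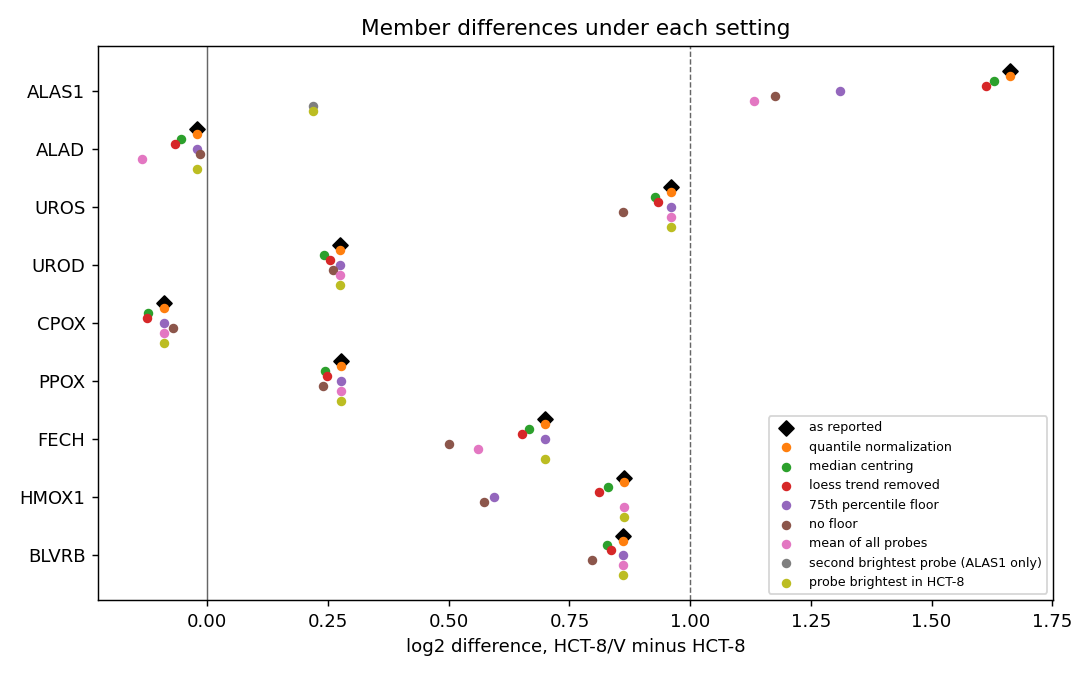
Log2 difference (HCT-8/V minus HCT-8) of each heme gene as reported (diamonds) and under other settings (circles), 8 for ALAS1 and 7 for each of the others, with a solid line at 0 and a dashed line at 2-fold. ALAS1 spans 0.22 to 1.66 and is the only gene whose points lie on both sides of the 2-fold line. UROS stays between 0.86 and 0.96, but it has 1 probe, so the settings of probe choice could not move it.

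Of the partner genes of the pathway outside the 9, BLVRA was bright and slightly higher, and HMOX2 and ALAS2 were dim. BLVRA, the main biliverdin reductase of adult tissue, read 1677 in HCT-8 against 2004 in HCT-8/V (1.20-fold, log2 0.26). HMOX2, the constitutive heme oxygenase, was below the floor on both arrays, at 11.2 and 1.60. ALAS2, the erythroid counterpart of ALAS1, was below the floor on both arrays with 2 of its 3 probes. The third read -8.25 in HCT-8 against 21.7 in HCT-8/V, above the floor in HCT-8/V only, so its difference is a bound. Other erythroid genes did not move with it. Of 7 erythroid markers with a probe, GATA1, KLF1 and EPB42 were below the floor on both arrays. HBA1 (30.4 in HCT-8 against 24.5 in HCT-8/V), HBB (21.2 and 16.1) and HBG1 (71.4 and 70.6) read slightly lower in HCT-8/V.

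HMOX1 is also abundant in macrophages and ALAS1 in hepatocytes, so markers of these cells were read beside them. Of 6 macrophage markers 4 were above the floor, 2 higher and 2 lower, and PTPRC and CD163 were below it on both arrays. Summed over all 6, with values below 0 taken as 0, their level was 950 in HCT-8 against 1225 in HCT-8/V. Most of it came from the lysosomal gene CD68 (844 and 1153). The sum thus followed CD68, while the median log2 difference of the 4 above the floor was -0.32. CD68 (log2 0.45) and CD14 (0.25) were the higher ones. CSF1R (log2 -0.89) and MSR1 were the lower ones. MSR1 was below the floor in HCT-8/V, so its log2 difference of -0.91 is a bound. Of 6 hepatocyte markers 4 were above the floor, 3 higher and 1 lower, with APOA1 and CYP3A4 below it on both. TTR was above it in HCT-8/V only and SERPINA1 in HCT-8 only, so their differences are bounds. The level summed in the same way over all 6 was 114 and 134. Of 5 fibroblast markers all 4 above the floor were higher, beside 52.8% of all genes above the floor, and COL1A2 was below it on both arrays. LUM was below the floor in HCT-8 (10.9 against 18.8 in HCT-8/V), so its log2 difference of 0.60 is a bound. The summed level of the 5 was 849 and 1187, led by DCN (625 and 854). The part of these genes in the differences of HMOX1 and ALAS1 was not tested.

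Among genes that feed the pathway or serve it in mitochondria, none was past 1.5-fold in either direction. That threshold was passed upwards by 12.8% and downwards by 11.2% of all genes above the floor. Of 5 precursor genes 4 were higher, SLC25A38 by a log2 difference of only 0.03, with a median of 0.17 and a mean of 0.09. The brightest, SHMT2, which makes mitochondrial glycine, read 2586 in HCT-8 against 2916 in HCT-8/V. SUCLA2, a subunit of a succinyl-CoA synthetase, was the exception at 1026 and 767. Among 9 expressed genes of porphyrin and mitochondrial transport and of ALAS1 turnover, 8 were higher and ABCB8 lower (30.1 and 25.5), with a median of 0.22. TSPO, a porphyrin-binding protein of the outer mitochondrial membrane, read 3670 and 4075, and CLPX, whose product helps degrade ALAS1 protein, read 204 and 236. For comparison, 52.8% of all genes above the floor were higher in HCT-8/V.

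Of 11 expressed regulators of ALAS1 and HMOX1, 9 were lower in HCT-8/V and 2 higher, with a median of -0.13, beside 47.1% of all genes above the floor that were lower. With the second brightest probes the median was -0.50, over 4 genes. MAFG, a small MAF protein that pairs with both BACH1 and NRF2 on the HMOX1 enhancers, was the only one past 2-fold, which 3.77% of all genes passed downwards, at 227 in HCT-8 against 110 in HCT-8/V. It was 2.06-fold lower on its brightest probe (log2 -1.04), and the mean of its 3 probes gave -1.10. The brightest regulator gene, EIF2AK1, a kinase that heme inhibits, was nearly level at 4613 and 4300. BACH1, the heme-sensing repressor of HMOX1, was below the floor on both arrays (-18.5 and -11.3), so its level could not be compared. NFE2L2, which encodes NRF2, read 1414 and 1299, and PPARGC1A, a coactivator that induces ALAS1 in fasting liver, read 251 and 204. These last 3 regulators were named after their values were seen.

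The other targets of BACH1 and NRF2 did not share the difference of HMOX1. Of 9 such genes 4 were higher and 5 lower, beside 52.8% and 47.1% of all genes above the floor. None of the 9 was past 1.5-fold, which 12.8% of all genes passed upwards and 11.2% downwards. The median of the 9 was -0.09. The brightest, FTL, the light chain of ferritin, read 7633 in HCT-8 against 8281 in HCT-8/V (log2 0.12). NQO1, a quinone reductase named after its values were seen, was also close to level at 2147 and 2216. With the second brightest probes the median of 6 such genes was 0.16, so the lean of the list is not settled.

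Of 11 expressed iron genes 7 were lower and 4 higher, with a median of -0.21, and with the second brightest probes, for 5 genes, of -0.52. Over all genes above the floor 47.1% were lower, and 11.2% passed 1.5-fold downwards. FBXL5, the iron-sensing ubiquitin ligase subunit that degrades IREB2, was the only one past 1.5-fold, at 256 in HCT-8 against 155 in HCT-8/V (log2 -0.72, and -0.73 with the mean of its 3 probes). TFRC, the transferrin receptor, read 2947 and 2110 (log2 -0.48) and STEAP3, an endosomal ferrireductase, 331 and 492 (log2 0.57). Both were named after their values were seen.

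Genes of heme transport and binding were split, 4 higher, 3 lower and HEBP1 equal at 1235 on both arrays. Among all genes above the floor 52.8% were higher and 47.1% lower. LRP1, a receptor that takes up heme bound to hemopexin among many other ligands, was 2.32-fold lower, at 87.2 in HCT-8 against 37.6 in HCT-8/V (log2 -1.21). FLVCR1, a choline transporter that was first described as a heme exporter and was named here after its values were seen, read 33.8 and 56.1 (1.66-fold higher). Both lay near or below the 75th percentile on the arrays.

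Genes whose products carry or need heme followed no common direction. Of 25 expressed, 14 were higher and 11 lower, beside 52.8% and 47.1% of all genes above the floor. The median of the 25 was 0.12 and turned to -0.05 with the second brightest probes, over 11 genes. The brightest, CYB5B, the cytochrome b5 of the outer mitochondrial membrane, was level at 6394 in HCT-8 against 6054 in HCT-8/V. PTGS2, the inducible prostaglandin synthase, was lower at 2240 and 1401 (log2 -0.68). NOS2, the inducible nitric oxide synthase, and the sterol hydroxylase gene CYP27A1 were above the floor in HCT-8/V only, at 31.1 and 30.7. In HCT-8 they read 10.5 and 11.8. Set against the floor, NOS2 came out 2.50-fold and CYP27A1 2.46-fold higher, and 4.24% of all genes above the floor passed 2-fold upwards. These folds are loose, because probes with a mean below 0 already differed between the arrays with a standard deviation of 10.7 intensity units. For NOS2 the mean of its 3 probes fell short of 2-fold (log2 0.99).

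**Figure D4:**
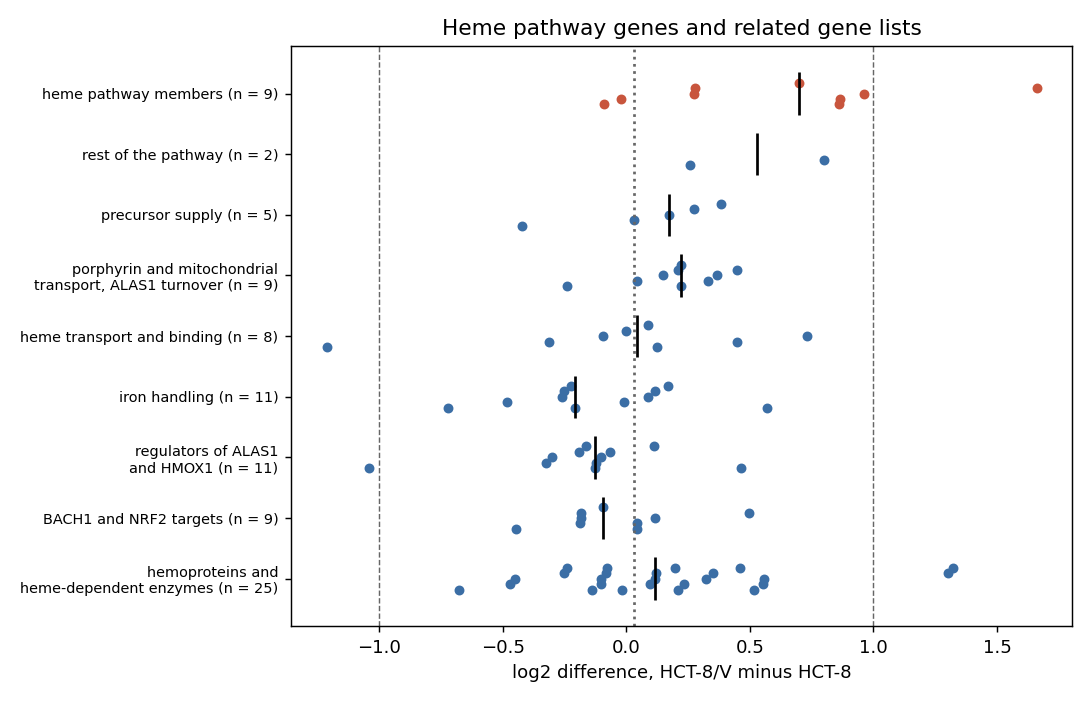
Log2 difference (HCT-8/V minus HCT-8) of the 9 heme genes (red) and of each related list's genes above the floor on at least 1 array (blue, number in parentheses), with the list's median as a black bar, the median of all genes above the floor (0.03) as a dotted line and 2-fold as dashed lines. The medians run from -0.21 for iron handling to 0.70 for the heme genes, whose members were chosen with their values known, and points of ALAS2, HP, NOS2 and CYP27A1 are bounds against the floor.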

How the data were processed

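The deposited table gives each probe 1 linear intensity on each of 2 arrays. Per the labels' protocols, biotin-labelled cRNA was made from total RNA with a MessageAmp kit for Illumina arrays. How the authors corrected background and scaled these intensities is not given in the sources used here. The values themselves were background-subtracted (29.2% below 0 on each array) and matched in distribution, so a shift of most genes one way would not be visible.

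Gene symbols came from the platform annotation, updated through Entrez IDs (30074 of 30113 probes with 1 symbol matched). Another 8 probes had several symbols and 17202 none, and both kinds were left out. Before the log2 step, lower values were raised to the array median. Each gene was read from its brightest probe (mean of both arrays). A positive difference means a higher value in HCT-8/V. With 1 array per line no test was possible. The calling steps were tested on simulated data with changes planted in bright probes only, so that test does not cover dim genes such as ALAS1.

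The members and lists were chosen with earlier results of these data known. Named genes were all members, ALAS2, HMOX2 and BLVRA, each list's brightest gene, those past 2-fold, those past 1.5-fold and above the 75th percentile on both arrays, and the 5 genes most like ALAS1. Other genes named in the text, markers among them, were named after their values were seen. Alternatives changed the scaling, floor, probe choice, fold threshold (1.5 and 3) and list summary. Python 3.11.15, pandas 2.3.3 and numpy 2.4.6 were used.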

Additional observations from a re-analysis of the deposited data

How the results depend on the processing

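With no replicates, a value was taken as moved when it shifted by more than 0.47, the standard deviation of log2 differences over genes above the floor on both arrays. ALAS1 moved from 1.66 to 1.18 with no floor (a constant of 46.0 added to every value), to 1.13 with the mean of all probes, and to 0.22 with the second brightest probe or with the probe brightest in HCT-8, a choice added after seeing the data. Under that last choice 0 members were at least 2-fold higher. At a threshold of 1.5-fold 5 were, and at 3-fold 1 was. No member was at least 2-fold lower under any alternative run. The other 8 members kept their direction and shifted by less than 0.47 under every alternative run for them: UROS stayed between 0.86 and 0.96, BLVRB between 0.80 and 0.86, HMOX1 between 0.57 and 0.86 and FECH between 0.50 and 0.70. The medians of the lists shifted by less than 0.47 in each alternative run. That measure is the spread of single genes and is loose for a median of several genes. With the second brightest probes the regulator median went from -0.13 to -0.50 and the iron median from -0.21 to -0.52. A list with very few genes left under a setting had no median there. The second brightest probe was above the floor for ALAS1 alone among the members. No paired analysis was possible because each line has 1 array. Dim signal limits what can be said of ALAS1, HMOX1 and FECH, which lie close to the 75th percentile of the arrays.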
